A study of Mus musculus with 8 samples.

Results

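The 78 genes described here encode small nucleolar RNAs (snoRNAs) and their relatives of the Cajal body (scaRNAs). They are defined by name and not by their values, as every row of the deposited value table with exactly 1 gene symbol that begins with Snora, Snord or Scarna, and they are 78 of 22180 genes with such a row. Of them, 26 belong to the H/ACA class (Snora), 47 to the C/D class (Snord) and 5 to the Cajal body class (Scarna). Where a gene had several rows, the brightest over all arrays was used, which concerned 3 genes.

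The RNA came from CD8 T cells of the spleen of female C57BL/6 mice (the strain tag of the samples spells it C56BL/6) that carried a transplanted mouse leukaemia. The transplanted cells came from Eµ-TCL1 mice, which develop a B cell leukaemia resembling human chronic lymphocytic leukaemia (CLL), so both groups carried the leukaemia and the host kept its own immune system. From 3 weeks after transplantation, the mice behind 4 samples were given a blocking antibody against the interleukin 10 receptor (IL-10R) and those behind the other 4 an isotype control antibody, for 2 weeks. After 5 weeks, effector cells were sorted by flow cytometry; they carried TCRb, CD8, CD44 and high PD-1 (a receptor that restrains activated T cells), had little CD127 and lacked the lineage markers. Each sample was hybridised to 1 GeneChip Mouse Gene 2.0 ST array. Nothing in the labels ties an array to its own animal or says how many animals gave a sample, so a p-value here weighs a difference only against array-to-array spread, which may be technical. The question of the comparison is what receptor blockade altered in these T cells.

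snoRNAs are short stable RNAs of the nucleolus that steer enzymes to ribosomal RNA. C/D snoRNAs bring the methyltransferase fibrillarin to the base they pair with, H/ACA snoRNAs bring the pseudouridine synthase dyskerin, and scaRNAs do the same for the small nuclear RNAs of the spliceosome. In mammals most of them lie in introns of host genes, many of which encode ribosomal proteins, translation factors or noncoding transcripts of the Snhg family, and they are cut out of the spliced intron. Growing and dividing T cells make many ribosomes and therefore draw on this machinery.

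The values are log2 signals of the authors' own summarisation, and each gene has its own probes, so a level is compared between arrays; where rows are called bright or dim, that is a property of their probes on this array and no order of RNA amounts. The RefSeq records of the members are short, with a median of 68.0 bases for Snord and 118.5 for Snora. A signal can come from the finished RNA, from its precursor or from host intron, and these cannot be told apart here. RNA was extracted with the RNeasy Micro Kit, per the labels' protocols. How well this extraction kept RNAs as short as the members was not measured here. Array medians lay between 5.19 and 5.31. Isotype replicate 1 stood apart, with a correlation across all genes of 0.959 to 0.965 with the other arrays, which among themselves gave 0.983 to 0.992. Results are therefore also given without it. The 7 genes listed for the sorted cells (Cd3e, Cd3d, Cd8a, Cd8b1, Pdcd1, Cd44 and Il7r) were all measured, and no TCRb gene was listed. All 7 were higher after blockade, by 0.03 (Il7r) to 0.50 (Pdcd1), and none passed the threshold. At an unadjusted limma p below 0.05, 4 were higher, where 7.23% of all genes were. The groups of Cd3e, Cd8a, Cd8b1 and Pdcd1 did not overlap, where 5.67% of all genes were higher without overlap. The mean of the 7 genes per array lay at 9.63 to 9.79 for the isotype arrays and 9.91 to 10.08 after blockade. This mean includes Il7r (CD127), a marker sorted for low levels, which was below the limit for dim genes. The mean of 9 B cell and leukaemia markers was 5.39 to 5.88 and 5.33 to 5.52, with 6 of the 9 below that limit, and none of the markers of other cells passed the threshold. Cd5 (9.92 over all arrays) lay far above the other genes of this B cell list, which had 4.10 (Fcer2a) to 5.95 (Cd79b). It raised the mean of the list, so that mean is no measure of B cells in the samples. CD4 T cell markers (2 genes) had their highest mean, 6.72, in isotype replicate 1 (Foxp3 alone 7.97), where the anti-IL-10R arrays had 5.00 to 5.40. Myeloid markers (6 genes, 5.60) and NK markers (3 genes, 6.64) were highest on that array too, and 2 erythroid and platelet markers had 4.95 to 5.37. The NK genes went different ways. Eomes (10.38 over all arrays) carried the NK mean, which is therefore no measure of NK cells in the samples. Eomes was lowest on isotype replicate 1 (10.13). Ncr1 and Klrb1c, dim over all arrays, were highest there (4.51 and 5.29). The part of these markers in the results below was not tested.

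The promoters of the host genes of the members on which the results turn are shown first, because members and hosts are set side by side below. The windows run from 250 bases before to 50 after the RefSeq start in GRCm38.p6. Snhg3 (chr4:132353637-132353936, minus strand) is the noncoding host of Snora73a and Snora73b, the H/ACA genes with the smallest p-values. Ap1g1 (chr8:109778333-109778632, plus strand), which encodes a clathrin adaptor subunit, is the host of Snord71, the C/D gene with the smallest p-value. Capitals mark matches, on either strand, to an E-box (CACGTG), to the core that ETS factors bind (CCGGAAG) and to a TATA box core (TATAAA).
Snhg3: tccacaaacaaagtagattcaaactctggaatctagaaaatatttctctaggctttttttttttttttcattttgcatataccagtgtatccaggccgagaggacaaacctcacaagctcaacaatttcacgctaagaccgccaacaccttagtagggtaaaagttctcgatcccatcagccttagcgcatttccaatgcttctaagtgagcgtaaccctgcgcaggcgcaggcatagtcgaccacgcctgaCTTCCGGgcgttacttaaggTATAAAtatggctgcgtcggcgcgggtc
Ap1g1: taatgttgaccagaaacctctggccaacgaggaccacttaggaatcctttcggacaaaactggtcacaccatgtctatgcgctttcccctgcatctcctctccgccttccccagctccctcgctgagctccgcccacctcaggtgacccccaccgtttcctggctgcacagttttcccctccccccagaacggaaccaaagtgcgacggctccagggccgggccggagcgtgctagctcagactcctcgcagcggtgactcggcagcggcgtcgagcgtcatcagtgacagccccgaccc
In the Snhg3 window the ETS core lies on the opposite strand (printed as CTTCCGG), with its match starting at base 3 after the 250 upstream bases, and the TATA box core starts at base 23. None of the 3 motifs was found in the Ap1g1 window. The E-box was present in 11 of 47 host promoters (23.4%) and in 7.24% of 27025 promoters in the same table. The ETS core was present in 27.7% of host promoters against 9.12%, and the TATA box core in 21.3% against 14.2%. These matches describe letters in a window and no binding.

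No snoRNA or scaRNA gene passed the threshold after IL-10R blockade. With limma and Benjamini-Hochberg adjustment over all 22180 genes (adjusted p below 0.05), 0 of 78 members were called, where 0.654% of all genes were (67 higher and 78 lower; 132 and 321 after quantile normalization, 32 and 64 after centring each array). By direction, 0.302% of all genes were higher and 0.352% lower. At an unadjusted limma p below 0.05, 8 members were higher and 8 lower, 20.5% of the members against 14.1% of all genes (7.23% higher and 6.9% lower). At an adjusted p below 0.1, 2 members were higher (Snord71 and Snord73b) and 2 lower (Snora73b and Snord49b), where 2.4% of all genes passed (1.22% higher and 1.19% lower). The groups did not overlap for 8 members, which is 10.3% of them, and 10.3% of all genes did so; 5 members were higher, against 5.67% of all genes, and 3 lower, against 4.65%.

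The calls depended on the array that stands apart and on the scaling. Without isotype replicate 1, 1 member was called higher (Snord71; 1.26% of all genes) and 3 lower (Snora73a, Snora73b and Scarna10; 2.21% of all genes), where 3.47% of all genes were called in either direction. With dim genes left out, 1 of 56 members was called (Snora73b, lower), where 2.53% of 12019 genes were called (1.23% higher and 1.3% lower). After quantile normalization 1 member was higher (Snord71; 0.595% of all genes) and 1 lower (Snora73b; 1.45%), against 2.04% in either direction. In sorted bulk cells, fewer cells of a kind and less RNA per cell cannot be told apart.

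The missing calls do not show that the genes were equal, because snoRNA signals varied widely between arrays of 1 group. The median residual SD of a member was 0.61 on the log2 scale, against 0.21 over all genes tested. At signals of 7 and above it was 0.47 for 20 members and 0.21 for 6562 genes. The 95% interval of the difference stayed within a 2-fold change in either direction for 36 of 78 members, or 46.2%, while it did so for 93.4% of all genes. The members' spread within the isotype group was the larger one for 57 of 78 genes, with a median SD of 0.63 against 0.40 in the anti-IL-10R group. That group includes isotype replicate 1, which stood apart, and the same count over all genes was not made. The larger spread is therefore not shown to be particular to the members. Of the 78, 56 had a mean signal of at least 5.24, the median of all row means, and the other 22 are called dim here.

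**Figure D1:**
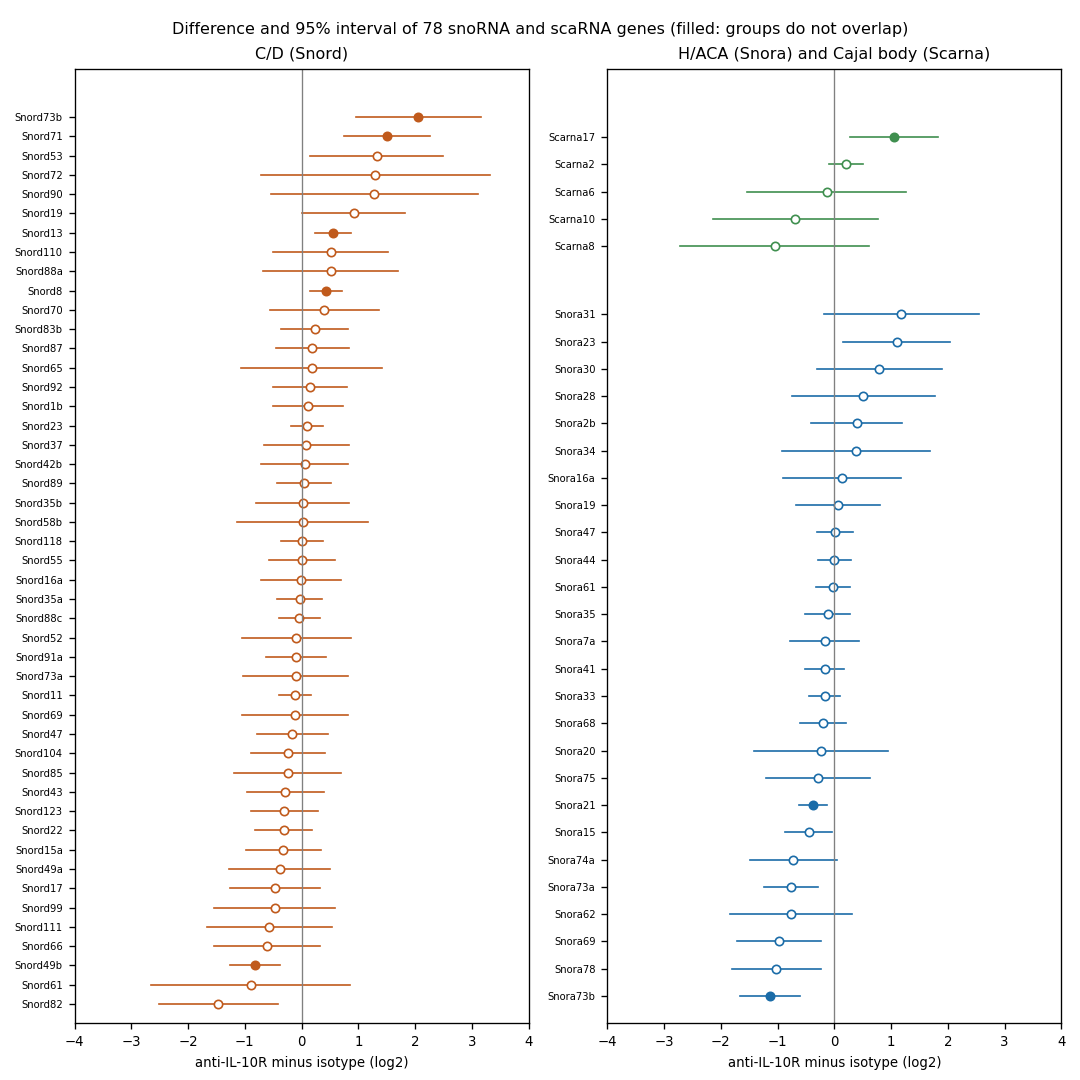
Difference between the groups (anti-IL-10R minus isotype, log2, horizontal axis) of each of the 78 genes with its 95% interval from limma, in rows sorted within each class. Filled points are the 8 genes whose groups do not overlap; the remaining 70 are open. Intervals of 36 genes stay between −1 and 1.

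Among the H/ACA genes, 10 were higher and 16 lower, with a median difference of −0.17 and a range from −1.13 to 1.18. Over all genes tested the median was −0.02. The sign of the Snora median held after quantile normalization (−0.21), after centring (−0.21) and without isotype replicate 1 (−0.18). The mean of the 26 genes per array was 5.76, 6.35, 6.31 and 6.21 in isotype replicates 1 to 4 and 6.03, 5.89, 6.26 and 5.99 in anti-IL-10R replicates 1 to 4. The array means of the groups overlapped, with isotype replicate 1 the lowest of all 8.

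The smallest H/ACA p-values belonged to the pair of U17 genes, Snora73a and Snora73b. U17 differs from most H/ACA RNAs in that it acts in cutting the precursor of the small ribosomal subunit RNA. Snora73b (transcript cluster 17430831) had signals of 7.17, 8.24, 8.41 and 8.17 in the isotype arrays and 6.88, 6.74, 7.05 and 6.78 in the anti-IL-10R arrays. All anti-IL-10R arrays lay below all isotype arrays, and isotype replicate 1 lay closest to them. The difference was −1.13 ± 0.24 (SE), a 2.19-fold lower signal (95% interval of the difference −1.67 to −0.60, limma adjusted p = 0.0665). Without isotype replicate 1 it was −1.41 (limma adjusted p = 0.00149), and with dim genes left out the adjusted p was 0.0478.

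Snora73a (17430833) had 6.09, 6.88, 7.21 and 7.06 in the isotype arrays and 6.03, 5.97, 6.11 and 6.09 in the anti-IL-10R arrays. Isotype replicate 1 lay among the anti-IL-10R arrays here, and the other 3 isotype arrays lay above them. The difference was −0.76 ± 0.21 (SE, limma adjusted p = 0.136), and −0.996 without isotype replicate 1 (limma adjusted p = 0.00571). The 2 genes lie in the same host and their RNAs are near-identical copies, so their rows need not be independent measurements.

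The host itself, Snhg3, also had lower values after blockade. It had 6.99, 7.39, 7.42 and 7.29 in the isotype arrays and 6.58, 6.83, 6.68 and 6.86 in the anti-IL-10R arrays, with no overlap. Its difference was −0.54 ± 0.13 (SE, limma adjusted p = 0.0934), and −0.63 without isotype replicate 1 (limma adjusted p = 0.0151). The differences of both snoRNAs were larger in size than that of the host; a test of that contrast was not made.

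Snora21, a guide in an intron of the ribosomal protein gene Rpl23, was among the 3 brightest H/ACA rows. It had 8.71, 8.55, 8.69 and 8.61 in the isotype arrays and 8.27, 8.43, 8.28 and 8.09 in the anti-IL-10R arrays. The groups did not overlap, although the gap was small, and the difference was −0.37 ± 0.11 (SE, limma adjusted p = 0.150). Snora33, the brightest H/ACA row (host Rps12), differed by −0.17 ± 0.12 with overlapping groups. A dimmer second row of Snora33 (17239751) had 8.48, 8.28, 8.59 and 8.70 against 8.18, 7.80, 7.84 and 7.61, a difference of −0.65 with no overlap. The 2 rows of this gene therefore disagree in size.

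Other low H/ACA genes had wider spreads. Snora78 (host Snhg9) differed by −1.02 ± 0.35 (SE), with 6.74 to 8.33 on the isotype arrays and 5.80 to 6.88 after blockade. Its highest value was isotype replicate 1, without which the difference was −0.675. Snora69 (host Rpl39) differed by −0.97 ± 0.34, and Snora62 (host Rpsa) by −0.76 ± 0.48. Their groups overlapped as well, and Snora62 was −1.23 without isotype replicate 1 and −0.31 without isotype replicate 3. Of the hosts, Snhg9 differed by −0.39 ± 0.145 and Rpsa by −0.35 ± 0.11, both without overlap, and Rpl39 by 0.04 ± 0.11 (below 0 after quantile normalization and after centring). The Rpl39 row (17548840) may measure another locus, as its transcript cluster is numbered far from that of Snora69 (17541008).

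The highest H/ACA differences were smaller without isotype replicate 1. Snora31, in an intron of Tpt1, had 4.23, 7.63, 7.45 and 6.75 in the isotype arrays and 7.77, 7.41, 7.86 and 7.73 in the anti-IL-10R arrays. Its difference of 1.18 ± 0.61 (SE) became 0.42 without isotype replicate 1. Snora23 (host Ipo7, an importin gene) had 7.09, 9.23, 8.93 and 8.98 against 9.12, 9.54, 9.89 and 10.07, and its difference of 1.10 ± 0.42 became 0.61. For both genes isotype replicate 1 was far below the other 7 arrays. Snora30 (host Srcap, a chromatin remodeller) and Snora28 (host Eif5) went from 0.80 and 0.51 with all arrays to 0.26 and −0.08 without that array. Snora34 (host Kansl2) differed by 0.39 ± 0.58, and ranged from 0.019 without anti-IL-10R replicate 1 to 0.93 without anti-IL-10R replicate 4. The 5 snoRNAs did not pass the threshold (limma adjusted p from 0.278 to 0.813), and the 5 hosts differed by −0.25 (Tpt1), 0.29 (Ipo7), 0.12 (Srcap), 0.01 (Eif5) and 0.03 (Kansl2), all with overlapping groups. The differences of Ipo7, Srcap and Eif5 were below 0 without isotype replicate 1. The Tpt1 row (17308731) may measure another locus, as its transcript cluster is numbered far from that of Snora31 (17302054).

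**Figure D2:**
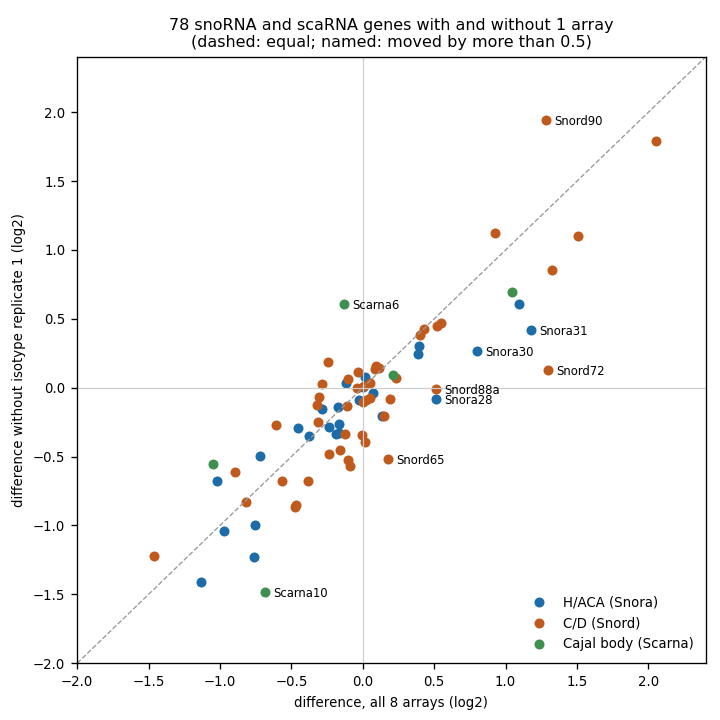
Difference of each of the 78 genes with all 8 arrays (horizontal axis, log2) against the difference without isotype replicate 1 (vertical axis, log2), coloured by class. The dashed line marks equal values, and the 9 named genes moved by more than 0.5, among them Snord72 from 1.30 to 0.13 and Snora31 from 1.18 to 0.42.

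Isotype replicate 1 had the lowest signal of all 8 arrays for 26 of the 78 members and the highest for 17, which is 33.3% and 21.8%. Over all genes the shares were 25.4% and 30.5%. Leaving it out moved the difference by more than 0.5 for 9 members and for 122 of all 22180 genes.

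The C/D genes divided almost evenly, 24 higher and 23 lower, with a median difference of 0.004 and a range from −1.47 to 2.06. The sign of that median was not stable: it was −0.05 after quantile normalization, −0.04 after centring and −0.08 without isotype replicate 1. The mean of the 47 genes per array was 5.78, 6.28, 6.12 and 6.21 for isotype replicates 1 to 4 and 6.28, 6.26, 6.23 and 5.94 for anti-IL-10R replicates 1 to 4. Isotype replicate 1 and anti-IL-10R replicate 4 were the lowest arrays of their groups.

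Snord71 had the smallest p-value of the C/D class. Its signals (transcript cluster 17505453) were 6.28, 7.94, 7.85 and 7.85 in the isotype arrays and 9.05, 8.89, 9.38 and 8.63 in the anti-IL-10R arrays. Every anti-IL-10R array lay above every isotype array, and isotype replicate 1 was far below the other 3 of its group. The difference was 1.51 ± 0.34 (SE), a 2.84-fold higher signal (95% interval 0.74 to 2.27, limma adjusted p = 0.0803). Without isotype replicate 1 it was 1.10 (limma adjusted p = 0.0110). Its host Ap1g1 differed by −0.03 ± 0.11, with array values from 9.67 to 10.01 for isotype and 9.75 to 9.93 for anti-IL-10R (0.006 with array weights and 0.009 without isotype replicate 2).

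Snord13 encodes U13, an RNA transcribed from its own promoter that guides Nat10 in acetylating the small subunit RNA. It had 8.20, 8.79, 8.46 and 8.31 in the isotype arrays and 8.82, 9.01, 9.05 and 9.06 in the anti-IL-10R arrays. The groups did not overlap, with isotype replicate 2 only just below the lowest anti-IL-10R array. The difference was 0.55 ± 0.14 (SE, 1.46-fold, limma adjusted p = 0.111), and 0.47 without isotype replicate 1 (limma adjusted p = 0.0854). Nat10 itself differed by 0.05 ± 0.19.

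Snord118 encodes U8, which acts in maturing the large subunit RNA and also has its own promoter. It had 5.62, 5.69, 5.29 and 5.76 in the isotype arrays and 5.49, 6.02, 5.39 and 5.48 in the anti-IL-10R arrays. The groups overlapped and the difference was 0.01 ± 0.16 (SE), with a 95% interval from −0.36 to 0.37. The sign changed under other scalings, with −0.05 after quantile normalization and −0.04 after centring.

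Snord8, in an intron of the chromatin remodeller gene Chd8, and Snord23, in Nop53, were among the 3 brightest C/D rows beside Snord13. Snord8 had 8.60, 8.57, 8.45 and 8.74 in the isotype arrays and 9.08, 8.96, 8.80 and 9.24 in the anti-IL-10R arrays. The groups did not overlap, and the difference was 0.43 ± 0.13 (SE, limma adjusted p = 0.152) with all arrays and 0.43 without isotype replicate 1. Chd8 differed by 0.26 ± 0.21 and by 0.05 without that array. Snord23 differed by 0.10 ± 0.12 and Nop53, which acts in ribosome assembly, by 0.14 ± 0.10, both with overlapping groups.

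Snord49b was the low C/D gene whose groups did not overlap. It had 6.50, 6.79, 6.40 and 6.43 in the isotype arrays and 6.12, 5.54, 5.99 and 5.20 in the anti-IL-10R arrays. All anti-IL-10R arrays were lower, with a wider spread than the isotype arrays. The difference was −0.82 ± 0.20 (SE, limma adjusted p = 0.0951), and −0.83 without isotype replicate 1. The noncoding host 2410006H16Rik differed by 0.27 ± 0.18, in the opposite direction, and it also holds Snord49a (−0.38 ± 0.40) and Snord65 (0.18 ± 0.56; −0.52 without isotype replicate 1).

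Snord73b had the largest difference of all members, but it was dim, and it was chosen for description after its values were seen. It had 3.26, 4.89, 2.98 and 5.07 in the isotype arrays and 5.62, 5.75, 5.98 and 7.08 in the anti-IL-10R arrays. The groups did not overlap, although the isotype arrays spread widely, from 2.98 to 5.07. The difference was 2.06 ± 0.50 (SE, limma adjusted p = 0.0936), and the isotype mean of 4.05 was itself dim, which leaves its size uncertain. Snord73a lies in the same host, the ribosomal protein gene Rps3a1, and differed by −0.11 ± 0.41, and the row of Rps3a1 differed by −0.02 ± 0.11 (SE). That row (17289787) is numbered far from Snord73a (17406450) and Snord73b (17406452), so it may measure another locus than their host transcript. The contrast between these 2 guides of 1 transcript was not tested.

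Several large C/D differences came with overlapping groups and rested on few arrays. Snord72 (host Rpl37) had 2.35, 6.83, 7.10 and 7.15 in the isotype arrays and 7.15, 6.97, 7.01 and 7.49 in the anti-IL-10R arrays, and its difference of 1.30 ± 0.91 (SE) became 0.13 without isotype replicate 1. Snord90 (host Rc3h2) had 7.93, 5.47, 3.18 and 7.17 against 7.004, 7.49, 7.15 and 7.24, a difference of 1.28 ± 0.82 that was 1.95 without isotype replicate 1 and 0.36 without isotype replicate 3. Its isotype arrays spread widely, while its anti-IL-10R arrays were close together. Rc3h2, which encodes the RNA-binding protein Roquin-2, differed by 0.58 ± 0.14 with groups that did not overlap (limma adjusted p = 0.0960). Snord53 (host Wdr43) differed by 1.33 ± 0.53, and by 0.85 without isotype replicate 1. Wdr43, a factor of ribosomal RNA processing, differed by −0.59 ± 0.16 (limma adjusted p = 0.124), so guide and host differed in sign.

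On the low side, Snord61 (host Rbmx) differed by −0.89 ± 0.79 (SE), which rested on anti-IL-10R replicate 4 at 3.94 against 7.74 to 7.94 in the other 3. Without that array it was 0.08. Snord66 differed by −0.61 ± 0.42, and single arrays left out moved it between −0.87 (isotype replicate 3) and −0.27 (isotype replicate 1). Snord99 differed by −0.47 ± 0.48, with −0.86 without isotype replicate 1 and −0.045 without anti-IL-10R replicate 1. Snord17 (host Snx5) differed by −0.47 ± 0.36, with −0.85 without isotype replicate 1 and −0.25 without isotype replicate 3. The hosts Rbmx and Snx5 differed by 0.21 ± 0.17 and −0.17 ± 0.15. Of the dim members chosen after their values were seen, Snord82, in the nucleolin gene Ncl, differed by −1.47 ± 0.47, Snora15 by −0.45 ± 0.19 (−0.29 without isotype replicate 1) and Snord19 by 0.92 ± 0.41 (0.49 without anti-IL-10R replicate 1), with unadjusted limma p of 0.0110, 0.0352 and 0.0468 and adjusted p of 0.191, 0.310 and 0.344.

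**Figure D3:**
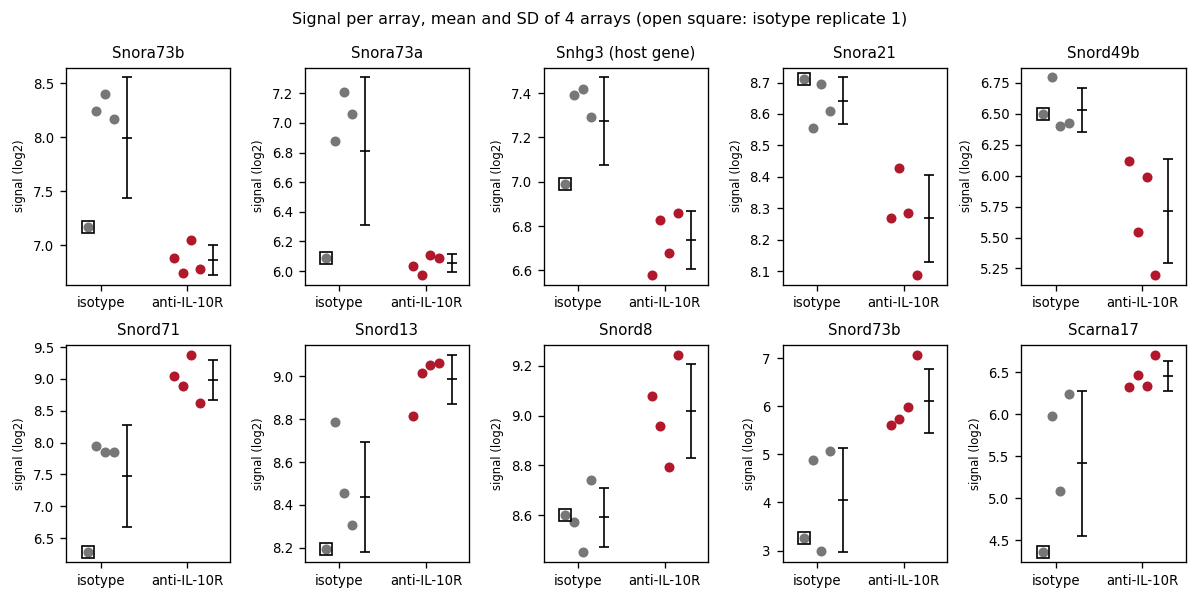
Signal on each array (log2, vertical axis, scaled per panel) for the 8 members whose groups do not overlap, with Snora73a and the host gene Snhg3. Grey points are isotype and red points anti-IL-10R arrays, the bars give the mean and SD of 4 arrays, and the open square marks isotype replicate 1, which lies apart from its group for Snord71 (6.28 against 7.85 to 7.94).

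Of the 5 Cajal body genes, 2 were higher and 3 lower. Scarna17 had 4.36, 5.98, 5.08 and 6.24 in the isotype arrays and 6.32, 6.47, 6.34 and 6.71 in the anti-IL-10R arrays. The groups did not overlap, with isotype replicate 4 just below the lowest anti-IL-10R array. The difference was 1.05 ± 0.35 (SE, limma adjusted p = 0.206), and 0.69 without isotype replicate 1. A second row of the gene (17355435) differed by 0.59, and there the groups overlapped. Scarna2, an independently transcribed RNA that guides modification of the U2 small nuclear RNA, was the brightest of the class and had 7.25, 7.71, 7.63 and 7.83 against 7.87, 7.73, 7.86 and 7.80. It differed by 0.21 ± 0.14, and by 0.09 without isotype replicate 1.

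Scarna8 (host Haus6), Scarna6 (host Atg16l1) and Scarna10 (host Ncapd2) varied most. Scarna8 spanned 4.20 to 7.75 on the isotype arrays and 3.97 to 6.66 after blockade, with a difference of −1.05 ± 0.75 (SE) that was −0.55 without isotype replicate 1 and −1.73 without isotype replicate 3. Scarna6 differed by −0.13 ± 0.63, and by 0.61 without isotype replicate 1, where it had its highest value, 8.15. Scarna10 had 3.09, 6.14, 6.24 and 6.49 on the isotype arrays and 5.02, 5.44, 4.40 and 4.35 after blockade. With isotype replicate 1 below all others its difference was −0.69 ± 0.65, and without it −1.48 ± 0.24 (limma adjusted p = 0.0141). The hosts Haus6 and Atg16l1 differed by −0.18 ± 0.20 and 0.23 ± 0.11. Ncapd2, which encodes a condensin subunit, differed by −0.38 ± 0.22, and by −0.61 without isotype replicate 1 (limma adjusted p = 0.0306). The class median of −0.13 has no stable sign, since it was 0.09 without isotype replicate 1, and 0.04 with dim genes left out.

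A host gene was found for 74 of the 78 members, as the RefSeq gene whose span holds the whole RNA. In total 60 different hosts were found, and 48 of them had a row with their symbol alone that served 62 members. The table gives no strand for the snoRNAs, so nesting and not orientation was used. A host's row was the brightest with its symbol, and its place in the genome was not checked. In most pairs the transcript clusters of host and snoRNA have close numbers. For Rps3a1 (17289787), Rpl3 (17533413), Rpl23a (17243456), Rpl39 (17548840) and Tpt1 (17308731) they do not. Those rows may measure another locus than the one that holds the snoRNA, and their pairs are included below. Across the 62 pairs the difference of the snoRNA and that of its host had the same sign in 38 and the opposite sign in 24. Pearson's r across pairs was 0.21 and Spearman's rho 0.21, and without isotype replicate 1 they were 0.38 and 0.30. The pairs share arrays and some share a host, so these values are a description. The host differences were more narrowly distributed (SD 0.25) than the snoRNA differences (SD 0.69), and the median of snoRNA minus host was 0.01.

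**Figure D4:**
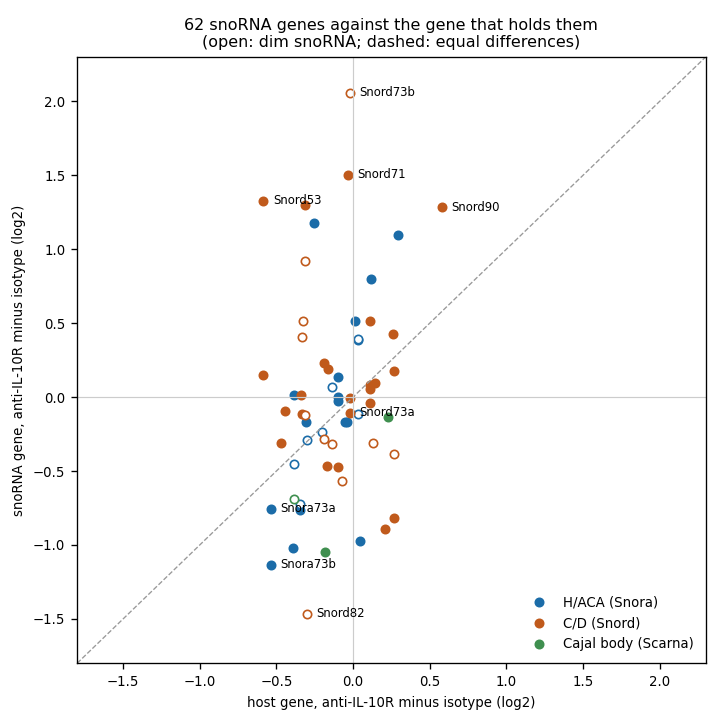
Difference of 62 snoRNA genes (vertical axis, log2) against the difference of the gene that holds them (horizontal axis, log2), coloured by class, with open points for dim snoRNAs. Hosts lie between −0.59 and 0.58 while the snoRNAs span −1.47 to 2.06, and Snord73a and Snord73b have 1 host but differ by −0.11 and 2.06. The rows of Rps3a1, Rpl3, Rpl23a, Rpl39 and Tpt1 may measure another locus.

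Grouped by host, the 19 members in noncoding hosts had a median difference of −0.24 (13 lower), and −0.48 without isotype replicate 1. The 24 in genes of ribosomal proteins or translation factors had a median of −0.02 (13 lower) and the 31 in other protein-coding genes one of −0.04 (16 lower). The 4 with no host found, Scarna2, Snord13, Snord89 and Snord118, were all higher, with a median of 0.13. Without isotype replicate 1 these 3 medians were −0.11, 0.06 and 0.06, so that of the other protein-coding hosts changed sign. Over all genes tested the median was −0.02, and no difference between these groups was tested. Snhg12 was the only host with 4 measured members. In it Snora44 differed by 0.003, Snora61 by −0.02, Snora16a by 0.13 and Snord99 by −0.47, and Snhg12 by −0.10 ± 0.18 (SE); apart from Snord99 these values changed sign when single arrays were left out.

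Beside the members' median difference of −0.04, that of their hosts was −0.14 over 48 genes (32 lower), that of 15 Snhg genes −0.10, that of 67 genes of cytosolic ribosomal proteins −0.11 (57 lower) and that of 483 miRNA genes −0.09. Their residual SD of 0.61 was larger than in each of these groups (0.18, 0.23, 0.15 and 0.27). The miRNA genes are short RNA genes as well; 131 of 483 were above the dim limit. None of the Snhg, ribosomal protein, host or miRNA genes passed the threshold by limma with all arrays. At an unadjusted limma p below 0.05 there were 7 of 15 Snhg genes (1 higher, 6 lower) and 11 of 67 ribosomal protein genes (0 higher, 11 lower). Hosts had 13 of 48 (1 higher, 12 lower) and miRNA genes 67 of 483 (29 higher, 38 lower). Of all genes 14.1% passed that limit, 7.23% higher and 6.9% lower.

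The genes of the protein partners had mostly lower signals and none passed the threshold. Of 38 listed genes that form, assemble, move or trim snoRNPs, 35 were measured, with 10 higher, 25 lower and a median difference of −0.21; of all genes tested, 11871 of 22180 were lower and the median was −0.02. At an unadjusted p below 0.05 limma gave 1 higher and 6 lower of the 35, where 7.23% of all genes were higher and 6.9% lower. Without isotype replicate 1, 2 of the 35 were called lower, Dkc1 and Nhp2, both of the H/ACA core, where 2.21% of all genes were, and the median was −0.32.

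The signals of all 4 genes of H/ACA core proteins were lower. Nhp2 averaged 9.03 ± 0.32 (SD, n = 4) on the isotype arrays and 8.42 ± 0.13 after blockade, with no overlap, a difference of −0.61 ± 0.16 (SE, limma adjusted p = 0.122). Gar1 went from 7.90 ± 0.16 to 7.39 ± 0.275, likewise with no overlap, with a difference of −0.52 ± 0.15 (limma adjusted p = 0.155). Dkc1, which encodes the pseudouridine synthase dyskerin, differed by −0.33 ± 0.29, and by −0.68 without isotype replicate 1 (limma adjusted p = 0.0150), which had 7.14 against 8.43 to 8.70 in the other isotype arrays. Nop10 differed by −0.22 ± 0.16 (−0.38 without isotype replicate 1, −0.12 without isotype replicate 2). Nhp2 without isotype replicate 1 differed by −0.72 (limma adjusted p = 0.0271).

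In the C/D core, Nop56 and Nop58 encode the scaffold proteins that hold the methyltransferase on the RNA. Both genes differed by −0.33, with SEs of 0.14 and 0.18 and overlapping groups. Both are also hosts of members: Snord11 and Snord70 lie in Nop58 and Snord110 in Nop56, and these differed by −0.11, 0.40 and 0.52. Snu13, which binds the RNA's kink-turn, differed by 0.15 ± 0.15 (0.0082 without isotype replicate 1). Rrp9, a partner of the U3 snoRNA, differed by −0.20 ± 0.24, with −0.43 without isotype replicate 1 and −0.016 without isotype replicate 2. The mean of all rows gave 0.04 for Nop56 and −0.07 for Snu13, which have further rows. The gene of fibrillarin was not analysed here.

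Among the 17 assembly, transport and Cajal body genes measured, 12 were lower. Xpo1, an exporter that also moves snoRNPs, differed by −0.33 ± 0.11 (SE, limma adjusted p = 0.200) and Znhit6, an assembly factor of C/D particles, by −0.37 ± 0.15, both without overlap, and Pih1d1, of the assembly complex R2TP, by −0.30 ± 0.12. Of the 10 genes of trimming, turnover and debranching, 6 were lower. Zcchc7, a partner of the RNA-tailing complex TRAMP, differed by 0.63 ± 0.19 without overlap (limma adjusted p = 0.167), Tent4b by 0.34 ± 0.17 (0.17 without isotype replicate 1) and the exonuclease gene Xrn1 by 0.24 ± 0.16 (0.14 without isotype replicate 3).

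**Figure D5:**
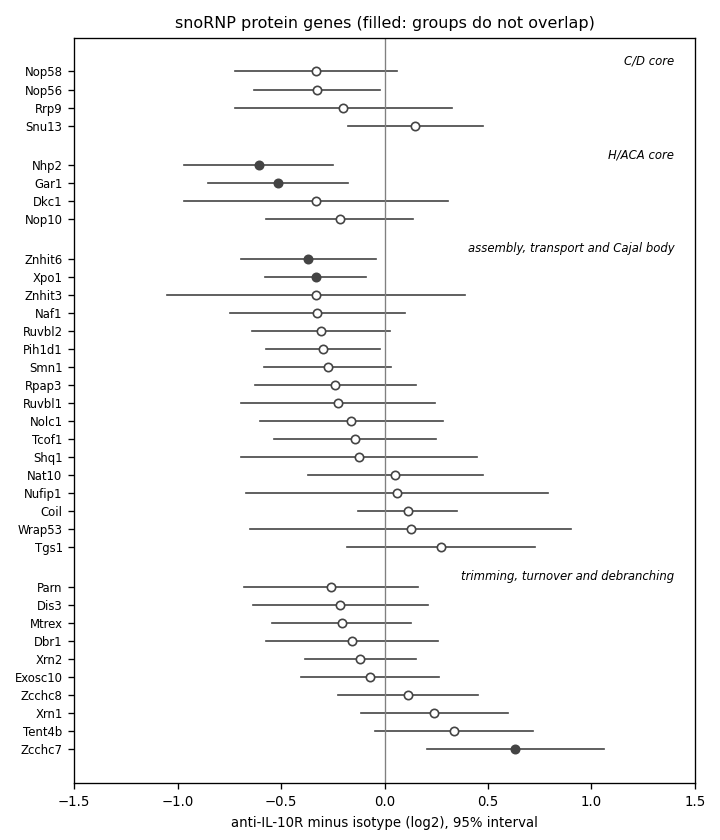
Difference (anti-IL-10R minus isotype, log2, horizontal axis) of the 35 measured snoRNP protein genes with 95% intervals from limma, in rows by list. Filled points are genes whose groups do not overlap: Nhp2, Gar1, Znhit6 and Xpo1 on the lower side and Zcchc7 on the higher side. Over all genes tested the groups did not overlap for 10.3%, with 4.65% lower and 5.67% higher.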

How the data were processed

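The deposited table holds 1 log2 value per transcript cluster (a probe group for 1 transcript locus) and array, 41345 rows by 8 arrays; the log2 scale was read from the range, 1.57 to 13.89. Per the submitters' processing notes, the authors used Affymetrix Power Tools to make it; the sources used here give neither version, summarisation nor normalization. Rows took their gene names from GEO's platform annotation, updated by gene identifier through RefSeq GRCm38.p6: 23521 rows had 1 symbol (22180 genes), 1814 several and 16010 none. The labels give no batch. The brightest row per gene entered limma 3.58.1 in R 4.3.3 (lmFit, eBayes, two-sided, total degrees of freedom 10.18, no filter on dim genes, so that every member was tested). The microarray number limits the precision.

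Named were the members with the largest differences of each class among those at or above the dim limit, the brightest members, the genes of rRNA processing, hosts, hosts with 4 or more members, all core proteins and the 3 smallest p-values of the other protein lists. The set of genes and the lists beside it were proposed with earlier results of these data known, although membership follows the gene name. Alternatives were filters on dim genes, quantile normalization, centring, means of all rows, a trended robust variance, array weights (statmod 1.5.0), a replicate block, each array left out, a threshold of 0.1 and all rows. The fit was tested on simulated data. Promoter windows are from RefSeq, for 47 of 60 hosts.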

Additional observations from a re-analysis of the deposited data

Results flagged for a closer look

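In groups of 4 arrays, 1 array lay far from the other 3 for several of the genes named; chance gives about 1 in 20 groups, and 16 of the 156 groups of all members did so (10.3%). Isotype replicate 1 was this array for 6 of the 16 and anti-IL-10R replicate 4 for 5. Isotype replicate 1 was low for Snora23 (7.09 against 8.93 to 9.23), Snord71 (6.28 against 7.85 to 7.94), Snord72 (2.35 against 6.83 to 7.15), Dkc1 (7.14 against 8.43 to 8.70) and Snx5 (8.61 against 9.13 to 9.20), and high for Tpt1 (10.83 against 9.95 to 10.07). Anti-IL-10R replicate 4 was low for Snord61 (3.94 against 7.74 to 7.94), Xpo1 (8.52 against 8.68 to 8.71) and the mean of the Snord class (5.94 against 6.23 to 6.28). Snord99 was low in anti-IL-10R replicate 1 (4.63 against 6.24 to 6.44), Snord118 high in replicate 2 (6.02 against 5.39 to 5.49) and Rps12 low in replicate 3 (12.66 against 12.75 to 12.76).

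A row outside the comparisons, which carries the symbols Snora43 and Snhg7, had every anti-IL-10R value above every isotype value, with a difference of 0.26 that was not tested.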

How the results depend on the processing

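The count of members called was 0 higher and 0 lower in the reported fit. It was 1 lower with dim genes left out, 1 higher and 1 lower both with the stricter filter and after quantile normalization, and 2 higher and 2 lower both with array weights and at an adjusted p below 0.1; with single arrays left out it ranged from 0 to 1 higher and 0 to 3 lower. All genes called went from 67 higher and 78 lower to 148 and 156 with dim genes left out, 224 and 225 with the stricter filter, 132 and 321 after quantile normalization, 387 and 536 with array weights and 4 and 2 over all rows of the table. There were 32 higher after centring and 121 higher with a trended robust variance. Leaving out single arrays gave 4 to 279 higher and 1 to 490 lower, with the highest counts without isotype replicate 1; each other array left out gave at most 20 higher and 15 lower. With the replicate number as a block there were 3 higher and 3 lower; same-numbered arrays deviated together in 2 of 4 pairs and with r of at most 0.08, and not every array correlated best with its own number, so the numbers were not taken as pairs. snoRNP protein genes called lower were 2 after quantile normalization, 5 with array weights and 0 to 2 with single arrays left out. The Scarna median was 0.21 with the stricter filter and −0.44 to 0.091 with single arrays left out (−0.44 without isotype replicate 3, 0.091 without isotype replicate 1), and snoRNA minus host was 0.16 with the stricter filter. The Snora median stayed below 0 in all of these fits. The causes of these shifts were not tested, except that filters and the full table change the number of genes tested.

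Some differences, not only small ones, changed sign. After quantile normalization these were Snord118 (−0.052), Snora44 (−0.092), Eif5 (−0.049), Kansl2 (−0.034) and Rpl39 (−0.036). After centring they were Snord118 (−0.038), Snora44 (−0.041), Eif5 (−0.033), Kansl2 (−0.0090) and Rpl39 (−0.00057). With array weights they were Scarna6 (0.51), Snord118 (−0.0076), Snora16a (−0.19), Ipo7 (−0.044), Eif5 (−0.076) and Ap1g1 (0.0059). With the mean of all rows they were Nop56 (0.038), Snu13 (−0.070) and Kansl2 (−0.013). With single arrays left out, the range crossed 0 for Snora28 (−0.083 to 0.82), Snord61 (−1.25 to 0.080), Scarna6 (−0.47 to 0.61), Snord118 (−0.14 to 0.075), Snora16a (−0.20 to 0.60), Snora44 (−0.080 to 0.079), Snora61 (−0.092 to 0.031), Snhg12 (−0.24 to 0.066), Ipo7 (−0.10 to 0.48), Srcap (−0.015 to 0.19), Eif5 (−0.096 to 0.065), Kansl2 (−0.049 to 0.098), Rpl39 (−0.013 to 0.083) and Ap1g1 (−0.10 to 0.0091). Among the genes that changed sign, Snord61 (−0.89), Snora28 (0.51) and Nop56 (−0.33) had larger differences in the reported fit. The size of the differences of the 22 dim members is uncertain. Among them are the highest and the lowest difference of all members, Snord73b (2.06) and Snord82 (−1.47).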

Other observations

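A further 46 rows carry a snoRNA or scaRNA symbol together with another gene's and were not assigned to either. They hold 31 different sets of values, since all 16 rows of the imprinted Snord116 copies have the same values (mean signal 3.95, below the limit for dim genes, difference −0.34). Of the 31, 17 were higher and 14 lower, from −0.69 to 1.99, and the groups did not overlap for 2 of them, which are described here; over all genes tested 10.3% did not overlap. The row of Snord12 and Zfas1, its noncoding host, had 5.97, 5.98, 6.76 and 6.38 in the isotype arrays and 5.83, 5.30, 5.70 and 5.50 in the anti-IL-10R arrays. All anti-IL-10R arrays were lower, by 0.69 in the mean. The row of Snora43 and Snhg7 had 6.79, 6.38, 6.78 and 6.83 against 7.07, 6.86, 6.87 and 7.05.  These rows were chosen after their values were seen.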
